A study of Mus musculus with 16 samples.

Results

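The SR proteins, Tra2 proteins, U2AF subunits and hnRNPs bind nascent transcripts and steer the choice of splice sites. Their genes were taken here by symbol: Srsf or Hnrnp followed by the member's number or letters, and Tra2a, Tra2b, U2af1 and U2af2, without pseudogenes. The rule found 35 of the 56953 genes in the count table, of which 34 had enough reads to be tested. Srsf12 was not tested, since it had 0 to 5 reads in each library. The members' own splicing events, taken by gene symbol from the deposited splicing tables, numbered 236 in 33 genes.

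The study compared 4 groups of 4 Bl6J mice, males and females together. The mice of 2 groups had a normal Rbm20 gene (WT), and those of the other groups carried on both alleles the missense mutation P635L of RBM20, a splicing factor of the heart. Every mouse received 1e12 vector genomes of AAV9, a virus that reaches the heart from the blood, injected into a tail vein when it was 4 weeks old. The virus carried either the Tnpo3 cDNA or a control construct (Ctr) that encodes the Cre recombinase and eGFP behind the CAG promoter, so that all 4 groups had been injected and none was left without virus. Left ventricle RNA was taken 12 weeks later, at 16 weeks of age. The labels give neither the sex of single mice nor the promoter in front of Tnpo3.

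An SR protein has an RNA recognition motif and a tail rich in arginine and serine, and it usually promotes the use of a nearby exon. TNPO3 (transportin-SR) is the import receptor that carries proteins with such tails into the nucleus, and RBM20, which selects exons of titin and other heart genes, has a region of the same kind in which P635L lies. Many hnRNPs oppose SR proteins on the same transcripts, and U2AF marks the end of the intron. Genes of both families commonly limit their own output through poison exons, which carry a stop codon early in the message and send it to nonsense-mediated decay, or through introns that stay in the message.

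The libraries held 28493249 to 85922669 counts. Tnpo3 stood at 44.9 ± 3.29 CPM (counts scaled by library size, mean ± SD, n = 4) in WT Ctr, 44.5 ± 2.72 in P635L Ctr, 321 ± 126 in WT Tnpo3 and 464 ± 214 in P635L Tnpo3, and reads of the vector and of the mouse gene cannot be told apart. Rbm20 was at similar levels in the 4 groups (224 to 245 CPM on average). A single non-coding locus took 19.96% to 22.65% of the counts of WT Ctr replicates 2 and 4 and WT Tnpo3 replicate 4, and up to 5.3% elsewhere. High Xist counts were found in 3 of the 8 WT libraries and in 0 of the 8 P635L libraries, so that the sexes were not balanced between the genotypes by this marker. The heart markers Myh6, Actn2, Tnnt2, Ryr2, Ttn and Myl2 summed to 41550 to 70470 CPM, while the atrial markers Sln and Myl7 were at most at 1.03 and 1.43 CPM. Nppa, an atrial marker that stressed ventricles also express, was at 148 to 400 CPM in WT Ctr, 5133 to 9799 in P635L Ctr and 916 to 4506 in P635L Tnpo3.

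Of the members' 172 skipped exon events, 145 were matched to annotated transcripts. Among those matched, exons were kept with a mean inclusion of 0.02 to 0.98 and at least 10 junction reads on average. Of these, 13 in 11 genes carried a stop codon that an annotated decay transcript of the mouse reads in that exon. Whether other skipped exons of the members hold such a stop is not reported here. The stretch from the start of the exon to that stop is printed for the 6 exons on which the splicing results turn, because the reading frame annotated for its decay transcript ends there. The capitals mark the stop codon. Sequence and coordinates are those of build GRCm38 with GENCODE M21 transcripts, and the exons were matched to the deposited events, given on GRCm39, by equal lengths of exon and introns. The Srsf6, Tra2b and U2af1 stops are the first in frame of their transcripts, whereas for Hnrnpl and Srsf11 no start codon is annotated in the transcript that holds the exon.

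Srsf6 268-base exon, chr2:162932815-162932966, plus strand: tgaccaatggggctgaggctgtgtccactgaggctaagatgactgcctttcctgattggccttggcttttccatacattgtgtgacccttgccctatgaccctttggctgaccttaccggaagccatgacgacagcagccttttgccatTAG
Srsf11 117-base exon, chr3:158023310-158023359, minus strand: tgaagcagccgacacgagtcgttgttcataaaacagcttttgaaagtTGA
Tra2b 276-base exon, chr16:22259181-22259261, minus strand: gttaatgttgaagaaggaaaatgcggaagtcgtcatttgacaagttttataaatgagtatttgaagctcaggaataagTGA
Srsf11 109-base exon, chr3:158024209-158024231, minus strand: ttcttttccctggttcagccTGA
Hnrnpl 70-base exon, chr7:28817335-28817393, plus strand: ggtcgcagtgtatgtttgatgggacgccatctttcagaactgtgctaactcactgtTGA
U2af1 67-base exon, chr17:31651684-31651712, minus strand: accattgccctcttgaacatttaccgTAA

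The members covered a wide range of levels. Per kilobase of gene model, the highest in WT Ctr was Hnrnpa2b1, a core packaging hnRNP, at 75.5 CPM per kb, followed by Hnrnpa1 at 65.7 and Hnrnpab at 48.5. Srsf5 led the SR proteins at 42.6 CPM per kb, next to Hnrnpl, a repressor that binds CA repeats, at 42.6. Srsf6 (29.3), Srsf2 (26.3) and U2af2 (23.5 CPM per kb) lay below these. The lowest tested members were Srsf4 at 3.55, Hnrnpr at 2.18 and Hnrnpll at 1.98 CPM per kb. The spread between members was far wider than that between groups, and the plot of levels by library sets each library against the WT Ctr mean of the same gene.

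**Figure D1:**
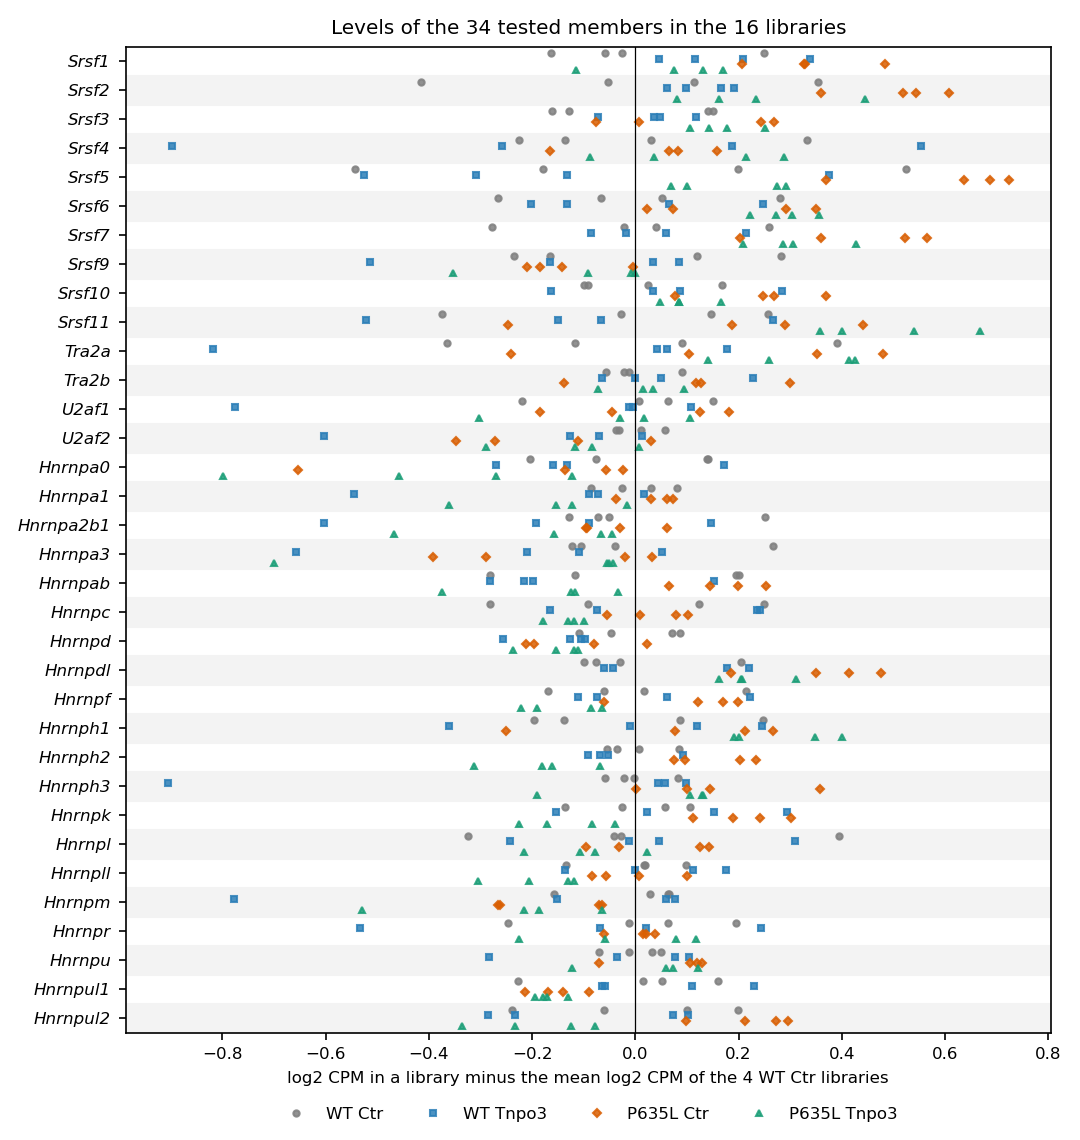
Log2 CPM of each of the 34 tested members in the 16 libraries minus the mean log2 CPM of the 4 WT Ctr libraries, with a colour and shape for each group and the members listed by family. The 4 P635L Ctr libraries of Srsf2 lie to the right of its 4 WT Ctr libraries, and the WT Tnpo3 libraries of Srsf4 hold both its lowest and its highest value.

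The comparison of P635L Ctr with WT Ctr asks what the mutation does when no Tnpo3 is given. Of the 34 tested members, 3 were higher in P635L Ctr and 0 were lower (8.82%, adjusted p under 0.05 in edgeR's quasi-likelihood test with Benjamini-Hochberg adjustment over all genes). Of all 18662 tested genes 14.2% were called, 7.07% higher and 7.14% lower. The 3 were Srsf2, Srsf7 and Hnrnpdl. The members' share was therefore not above that of all genes.

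Srsf2 (SC35, a core SR protein that also marks nuclear speckles) measured 73.6, 57.3, 97.6 and 82.6 CPM in the 4 WT Ctr libraries and 109.3, 116.3, 111.2 and 97.98 in the 4 P635L Ctr libraries. Every P635L Ctr library lay above every WT Ctr library, the closest pair being 97.98 against 97.56. The log2 fold change was 0.48 (SE 0.13, adjusted p = 0.0195, edgeR). In WT Tnpo3 it measured 87.2, 85.7, 81.7 and 79.7 CPM, and in P635L Tnpo3 89.8, 85.4, 104.0 and 80.8. The gene overlaps Mettl23 and Mfsd11 on the other strand, and whether the counting used strand is not given in the sources used here.

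Srsf7 (9G8), an SR protein that also takes part in RNA export, measured 63.1, 50.7, 73.4 and 60.4 CPM in WT Ctr and 88.2, 90.7, 78.7 and 70.6 in P635L Ctr. The groups overlapped in 1 pair of libraries, and the log2 fold change was 0.41 (SE 0.12, adjusted p = 0.0277, edgeR). Srsf7 stayed at 64.0, 57.9, 71.2 and 60.6 CPM in WT Tnpo3, while P635L Tnpo3 gave 74.9, 70.9, 82.5 and 75.8. Hnrnpdl, a relative of hnRNP D that regulates RNA in nucleus and cytoplasm, measured 91.5, 96.0, 112.8 and 93.0 CPM in WT Ctr and 130.5, 136.2, 124.8 and 111.4 in P635L Ctr. Its log2 fold change was 0.35 (SE 0.10, adjusted p = 0.0291, edgeR), with 1 overlapping pair.

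Among the 12 tested SRSF and Tra2 genes, 11 had a positive log2 fold change in P635L Ctr and Srsf9 alone a negative one (-0.15), but only 2 passed the test. Srsf5, an SR protein whose messages respond quickly to growth signals, had the highest value of all members (0.56) and did not pass (adjusted p = 0.073). It measured 144, 112, 235 and 188 CPM in WT Ctr and 263, 254, 270 and 211 in P635L Ctr, and the wide WT Ctr group overlapped the mutant group. Srsf1, an SR protein that acts as a general splicing factor, had 0.33 (adjusted p = 0.0528), and Srsf10, which acts as a repressor when dephosphorylated, had 0.24 (adjusted p = 0.142). Srsf6 (0.18), Srsf11 (0.17), Tra2a (0.17), Srsf3 (0.11), Tra2b (0.11) and Srsf4 (0.02) were closer to 0.

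The hnRNPs showed no common direction in P635L Ctr: 12 of 20 had a positive and 8 a negative log2 fold change, with a median of 0.03 against -0.05 over all tested genes. Apart from Hnrnpdl, their values lay between -0.20 for Hnrnpa0 and 0.21 for Hnrnpk and Hnrnpul2. The U2AF subunits, U2af1 at 0.02 and U2af2 at -0.17, did not pass the test. Groups did not overlap for 2 of 34 members, Srsf2 and Hnrnpk, against 19.1% of all genes. In the authors' deposited table of this comparison, 5 members had an adjusted p under 0.05, the 3 named here with Srsf1 and Srsf5.

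Fibroblast markers moved with these differences: 5 of 5 were called higher in P635L Ctr, with a summed level of 1067 to 1565 CPM against 625 to 907 in WT Ctr, and of the 6 cardiomyocyte markers 2 were called lower. Of the other lists, 1 of 2 tested atrial markers (Nppa) and 1 of 2 tested skeletal muscle markers (Tnnt3, at 9.49 to 12.3 CPM against 0.784 to 1.33) were called higher and 1 of 4 macrophage markers (Cd68) lower. Their part in the members' differences was not tested, and in such bulk tissue fewer cells of a type and less RNA per cell cannot be told apart. Without the 3 libraries rich in the non-coding locus, the log2 fold changes of Srsf2, Srsf7 and Hnrnpdl were 0.38, 0.30 and 0.34, and none of the 3 passed the test (edgeR). Leaving out single libraries ended the Srsf2 call without P635L Ctr replicate 2 (adjusted p = 0.0544), the Srsf7 call without WT Ctr replicate 2 or 4 or P635L Ctr replicate 1 or 2 (0.0548 to 0.0856), and the Hnrnpdl call without WT Ctr replicate 1, 2 or 4 or P635L Ctr replicate 1, 2 or 3 (0.05 to 0.0761).

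**Figure D2:**
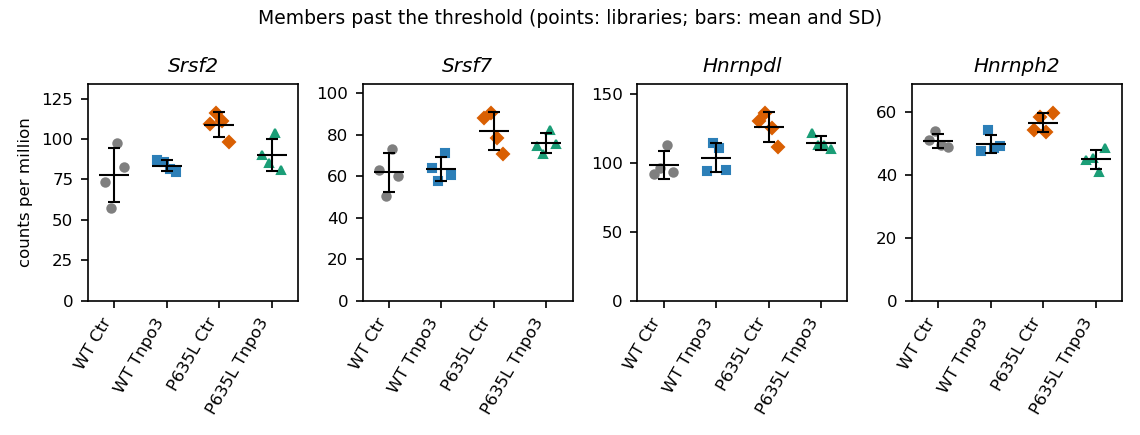
CPM of Srsf2, Srsf7, Hnrnpdl and Hnrnph2 in each library by group, with the group mean and SD (n = 4). Srsf2, Srsf7 and Hnrnpdl are highest in P635L Ctr, and the 4 P635L Tnpo3 libraries of Hnrnph2 lie below the 4 P635L Ctr libraries.

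Between the mutant groups, which asks what Tnpo3 does in P635L hearts, 1 of 34 members changed and was lower (2.94%). Of all genes 3.88% were called, 1.63% higher and 2.25% lower. The member was Hnrnph2, an X-linked member of the H and F group, which binds runs of guanines. It measured 54.3, 58.4, 53.5 and 59.6 CPM in P635L Ctr and 44.8, 45.4, 40.8 and 48.4 in P635L Tnpo3. The groups did not overlap, and the log2 fold change was -0.33 (SE 0.089, adjusted p = 0.0437, edgeR). In WT Ctr it measured 50.9, 53.8, 49.5 and 48.9 CPM and in WT Tnpo3 47.6, 54.1, 48.4 and 48.9, so that the WT groups lay between the mutant groups on average.

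The other hnRNPs pointed the same way without passing the test. Of the 20, 19 had a negative log2 fold change and only Hnrnph1 a positive one (0.20), and with upper-quartile scaling 17 were negative. Without P635L Tnpo3 replicate 3, 15 were negative, and without P635L Ctr replicate 2, 16. Their median was -0.14, where that of all tested genes was 0.0067. Hnrnpul2, a large nuclear hnRNP U relative with a role in DNA repair, measured 83.8, 87.3, 77.4 and 88.7 CPM in P635L Ctr and 66.3, 68.5, 57.3 and 61.5 in P635L Tnpo3 (log2 fold change -0.41, adjusted p = 0.0586). Hnrnpk, which binds runs of cytosines, measured 157, 172, 166 and 180 CPM in P635L Ctr and 138, 142, 125 and 129 in P635L Tnpo3 (log2 fold change -0.34, adjusted p = 0.0791). Neither gene's groups overlapped.

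Hnrnpab (-0.32, adjusted p = 0.177) and Hnrnpf (-0.25, adjusted p = 0.212) also had groups that did not overlap, as did Hnrnpc and Hnrnpll. In all, 9 of 34 members had groups that did not overlap, all lower in P635L Tnpo3, against 20.4% of all genes in either direction. How many of all genes were lower without overlap was not counted. Hnrnpk overlaps Rmi1 on the other strand and Hnrnpab overlaps Phykpl. Of the 3 hnRNPs with the highest levels per kilobase, Hnrnpab had -0.32, Hnrnpa1 -0.19 and Hnrnpa2b1 -0.14, while Hnrnpu, a nuclear matrix protein, had -0.04.

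The 12 SRSF and Tra2 genes split into 6 positive and 6 negative values between the mutant groups, with a median of -0.03, and 0 passed the test. Srsf5 (-0.42, adjusted p = 0.267) and Srsf1 (-0.27, adjusted p = 0.193) had unadjusted p-values under 0.05 and groups that did not overlap. Of all 18662 tested genes, 3426 had an unadjusted p under 0.05 (edgeR). Srsf2, which had been called higher in P635L Ctr, had -0.27 (adjusted p = 0.280), Srsf7 had -0.11 and Hnrnpdl -0.14. Both sets of values rest on the same P635L Ctr libraries. The highest positive value was that of Srsf11, an SR-related protein (0.31), followed by Tra2a (0.11) and Srsf6 (0.10).

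Fibroblast markers moved here too: 4 of 5 were called lower in P635L Tnpo3, with a summed level of 705 to 960 CPM, as were Nppa and Tnnt3, and their part in the hnRNP values was not tested. Without WT Ctr replicate 3, WT Tnpo3 replicate 3, any P635L Ctr library or any of P635L Tnpo3 replicates 1 to 3, Hnrnph2 no longer passed (adjusted p 0.0513 to 0.157, edgeR), while its log2 fold change stayed between -0.37 and -0.29.

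**Figure D3:**
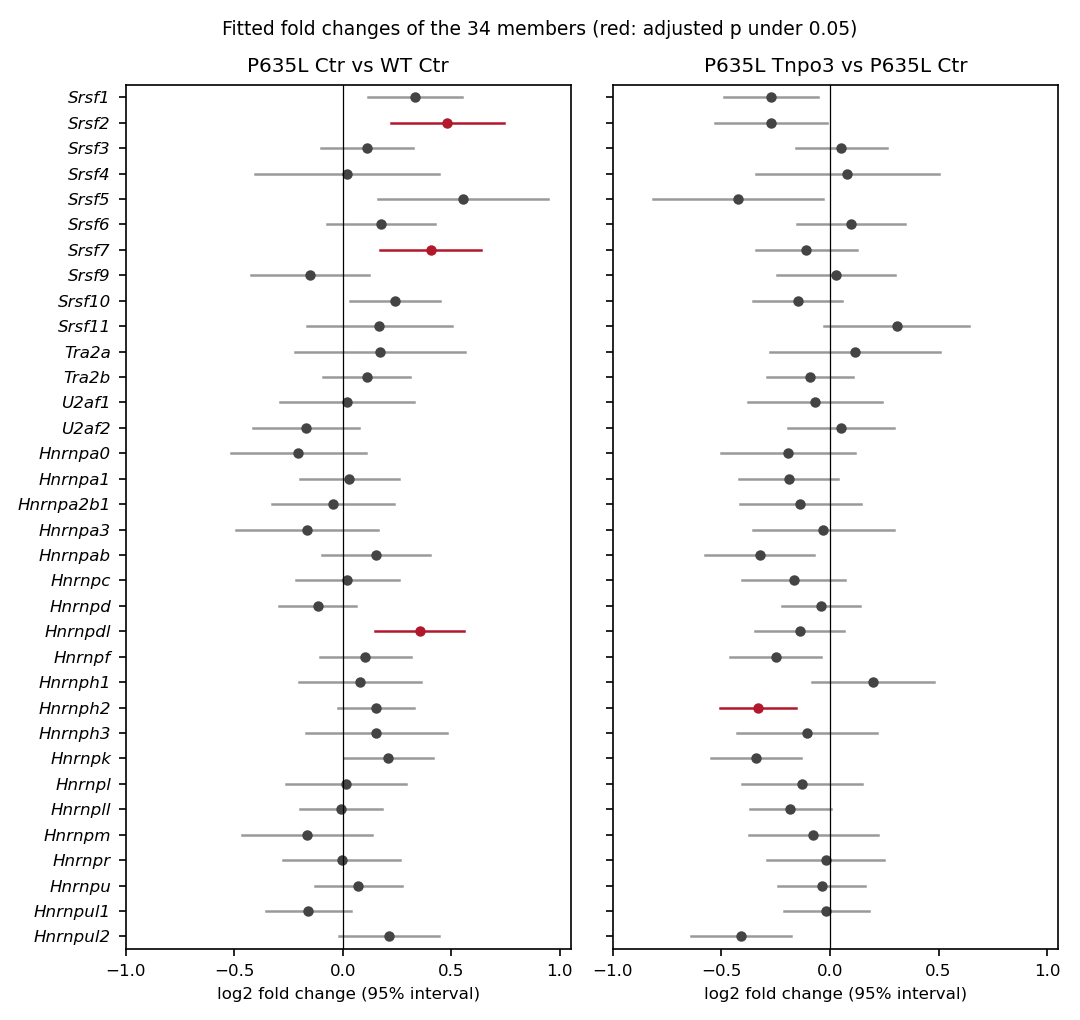
Log2 fold change of each tested member with its 95% interval in P635L Ctr against WT Ctr and in P635L Tnpo3 against P635L Ctr, ordered by family. The SRSF and Tra2 genes lie mostly right of 0 in the first comparison, the hnRNPs mostly left of 0 in the second, and red marks the called members (adjusted p under 0.05).

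In WT hearts, 0 of 34 members changed with Tnpo3 (edgeR), and 0.00536% of all genes were called, Tnpo3 alone. An unadjusted p under 0.05 was found for 0 members and for 597 of all 18662 tested genes. The log2 fold changes ran from -0.22 for Hnrnpa3 to 0.17 for Srsf1. WT Tnpo3 replicate 1 had the lowest CPM of the 16 libraries in 14 of the 34 members, a place it took in 11.9% of all tested genes, and leaving it out gave 0 calls again. Groups did not overlap for 0 members, against 1.09% of all genes.

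P635L Tnpo3 was also set against both WT groups. Against WT Ctr, 0 of 34 members were called (edgeR), where 3.07% of all genes were. An unadjusted p under 0.05 was found for 4 of the 34 members and for 3416 of all 18662 tested genes. Against WT Tnpo3, the count was 0 as well (edgeR), where 3.72% of all genes were called. Here 5 members and 3758 of all genes had an unadjusted p under 0.05. Groups did not overlap for 3 members against WT Ctr (Srsf11, Hnrnpd and Hnrnph2, beside 11.7% of all genes) and for 2 against WT Tnpo3 (Srsf11 and Hnrnpul1, beside 11.5%). Srsf11 came nearest: it measured 115, 80.0, 124 and 102 CPM in WT Ctr and 72.3, 93.5, 125 and 99.0 in WT Tnpo3. In P635L Ctr it measured 141, 127, 118 and 87.4 CPM. The P635L Tnpo3 libraries gave 133, 151, 137 and 165 CPM, above every library of both WT groups. Its log2 fold change was 0.48 against WT Ctr (adjusted p = 0.142) and 0.59 against WT Tnpo3 (adjusted p = 0.0622, edgeR), and it alone of the members was called against WT Ctr in the authors' deposited table (adjusted p = 0.0231). The interaction, which asks whether Tnpo3 acted differently in the 2 genotypes, was called for 0 of 34 members (edgeR) and for 0.504% of all genes. An unadjusted p under 0.05 was found for 3 members and for 2321 of all 18662 tested genes. The 3 members were Srsf1 (-0.44), Hnrnpk (-0.43) and Hnrnph2 (-0.30), with adjusted p-values of 0.243, 0.238 and 0.335.

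Genes that work with the members were taken from lists. None of the 8 SR protein kinases, which phosphorylate the tails that TNPO3 recognises, and none of the 18 SR-related proteins was called in any of the 6 contrasts (edgeR; up to 3 and up to 5 had an unadjusted p under 0.05). These counts were highest in P635L Tnpo3 against WT Tnpo3, where 3758 of all 18662 tested genes had such a p. Of 12 tested U2 snRNP and branch point factors, 2 were higher in P635L Ctr than in WT Ctr (16.7%, against 14.2% of all genes called, 7.07% higher). The same 2 were lower in P635L Tnpo3 than in P635L Ctr (16.7%, against 3.88%, 2.25% lower). These were Uhmk1, a kinase with a domain like that of U2AF (0.62 and -0.41, adjusted p 0.000596 and 0.0345), and Zrsr1, a relative of U2af1 (0.79 and -0.50, adjusted p 8.47e-05 and 0.0157). Both comparisons rest on the same P635L Ctr libraries. Of 11 muscle splicing regulators, Rbfox1 (-1.19) and Celf1 (-0.50) were lower in P635L Ctr than in WT Ctr (18.2%, against 14.2% of all genes, 7.14% lower). Rbfox1 alone of the list was called in P635L Tnpo3, as lower than in WT Ctr (-0.96) and WT Tnpo3 (-0.93). That was 9.09% of the list each time, against 3.07% and 3.72% of all genes. Of 19 RNA-binding proteins close to hnRNPs, Matr3 was higher in P635L Ctr (0.31), a share of 5.26%, against 14.2% of all genes. Besides Tnpo3 itself, the import receptor list of 3 genes gave Tnpo1 as lower in P635L Tnpo3 than in WT Tnpo3 (-0.40, adjusted p = 0.0482, edgeR). That was 33.3% of the list, against 3.72% of all genes. Calls of list genes were not rechecked with libraries left out.

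The splicing tables count junction reads for exon skipping, retained introns, alternative splice sites and mutually exclusive exons, and give the inclusion level of each event, from 0 to 1, in 4 libraries a group. Which listed position is which mouse is not stated, so values are given in listed order. In the authors' deposited tables, an event was called at a false discovery rate (FDR) under 0.05 with a difference of at least 0.1 and at least 10 junction reads on average. Against WT Ctr, P635L Ctr had 4 called member events of 171 (1 higher and 3 lower, against 2.53% of all events), P635L Tnpo3 had 8 of 183 (4 higher and 4 lower, against 2.13%), and WT Tnpo3 had 0 of 166 (against 0.947%). The mutant groups were compared from the inclusion levels with limma, which called 0 of 145 member events and 0.0239% of all events. Groups did not overlap for 8 of the members' 97 variable events (8.25%), those with a mean inclusion of 0.02 to 0.98, against 5.31% of all such events.

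Poison exons were followed one by one. Between the mutant groups, 10 of the 13 had a higher mean inclusion in P635L Tnpo3 and 3 a lower one, with a median difference of 0.063. Of all variable skipped exons, 4311 were higher and 4326 lower. Poison exons of other genes were not counted, so whether the rise is particular to the members was not tested. The 10 higher exons hold both forms of a Tra2b exon and both Srsf11 exons. Each of these pairs shares the junction of the skipped message, so the 13 are not independent. The libraries of the groups did not overlap for 3 (23.1%, all higher in P635L Tnpo3), against 4.56% of all variable skipped exons, but none of the 3 passed limma's test after adjustment over all events. The exons of U2af1 and U2af2 also occur in protein-coding transcripts, and without them 9 were higher and 2 lower. The exact permutation test with 4 against 4 libraries cannot go below p = 0.0286, two-sided.

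The Srsf6 exon of 268 bases, whose first stop is printed above, showed the widest difference. Its inclusion was 0.228, 0.286, 0.22 and 0.127 in P635L Ctr and 0.545, 0.561, 0.412 and 0.353 in P635L Tnpo3. Every P635L Tnpo3 library was above every P635L Ctr library, with a difference of 0.253 (exact permutation p = 0.0286, two-sided, and limma adjusted p = 0.361). The WT Ctr libraries gave 0.349, 0.151, 0.45 and 0.467 and the WT Tnpo3 libraries 0.279, 0.307, 0.319 and 0.407, so that both WT groups lay between the mutant groups on average. The gene's level in the mutant groups was 159 ± 17.7 CPM with Ctr and 171 ± 6.60 with Tnpo3. All 172 skipped exons of the members are among the counted exons, so gene levels hold reads of both forms.

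The Srsf11 exon of 117 bases was included at 0.538, 0.611, 0.643 and 0.458 in P635L Ctr and at 0.675, 0.753, 0.782 and 0.834 in P635L Tnpo3, a difference of 0.199 (exact permutation p = 0.0286, two-sided, and limma adjusted p = 0.381). WT Ctr gave 0.564, 0.292, 0.792 and 0.527, and WT Tnpo3 gave 0.458, 0.558, 0.65 and 0.419. The wide WT Ctr group overlapped the P635L Tnpo3 group. The gene's level in the mutant groups was 118 ± 22.5 CPM with Ctr and 146 ± 14.5 with Tnpo3. These levels, and the Srsf11 levels given further above, hold reads of the forms with and without the exon.

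The Tra2b exon of 276 bases is the classic poison exon of this splicing activator. Its inclusion was 0.262, 0.25, 0.202 and 0.122 in P635L Ctr and 0.357, 0.313, 0.281 and 0.333 in P635L Tnpo3 (difference 0.112, exact permutation p = 0.0286, two-sided, and limma adjusted p = 0.461). It was 0.184, 0.152, 0.173 and 0.225 in WT Ctr, and P635L Tnpo3 was called higher than WT Ctr in the authors' deposited table (difference 0.138, FDR = 0.000333), with no overlap. A longer form of the exon with 397 bases and the same start had a mean inclusion of 0.123 in P635L Ctr, and of 0.164 with Tnpo3. The summed Tra2b count hardly differed, at 48.9 ± 5.98 and 45.9 ± 2.19 CPM.

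Against WT Ctr, 11 of the 13 poison exons were higher and 2 lower in P635L Tnpo3. Of all variable skipped exons, 4154 were higher and 4648 lower, and 320 of 8891 were called. Poison exons of other genes were not counted here either. Without the U2af1 and U2af2 exons, which also occur in protein-coding transcripts, 9 poison exons were higher and 2 lower, with 2 called. With them, 3 of the 13 were called. Besides Tra2b these were the Hnrnpl exon of 70 bases, at a mean of 0.211 ± 0.0965 in WT Ctr and 0.346 ± 0.0751 in P635L Tnpo3 (FDR = 0.0118 in the authors' deposited table), and the U2af1 exon of 67 bases, at 0.628 ± 0.0964 and 0.770 ± 0.0514 (FDR = 0.0161 in the authors' deposited table). Libraries of the groups overlapped for both. The upstream neighbour in the U2af1 event is the gene's other exon of 67 bases, so that its inclusion does not measure a plain choice between exon and no exon. In P635L Ctr 8 poison exons were higher and 5 lower than in WT Ctr, and 1 was called, beside 575 of 8919 variable skipped exons. The called one was the Srsf11 exon of 109 bases, which fell from 0.136 ± 0.111 to 0.0262 ± 0.0414 (FDR = 0.0145 in the authors' deposited table) on 18 to 50 reads a library. Without the library at listed position 3 of WT Ctr this difference was -0.0584 in place of -0.11. In WT Tnpo3, 3 poison exons were higher and 9 lower, and none was called, beside 180 of 8410 variable skipped exons.

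The poison exons of Srsf3, Srsf9 and U2af2 had a lower mean in P635L Tnpo3 than in P635L Ctr, and the others not yet described had a higher one. That of Srsf3 (456 bases), the smallest SR protein, was best covered, with 520 junction reads a library, and its mean inclusion was 0.0915 in WT Ctr, 0.0873 in WT Tnpo3, 0.0910 in P635L Ctr and 0.0748 in P635L Tnpo3. That of Srsf7 (460 bases) was at 0.0520, 0.0388, 0.0580 and 0.0717 in the same order. Srsf9 (358 bases) was at 0.110, 0.157, 0.143 and 0.122, and Tra2a (306 bases) at 0.0785, 0.0583, 0.0315 and 0.0818. Hnrnpll (83 bases) was at 0.269, 0.264, 0.216 and 0.325, and U2af2 (64 bases) was at 0.0325 to 0.0600 on average. As for Hnrnpl and Srsf11, no start codon is annotated in the decay transcripts that hold the Srsf9 and U2af2 exons. Decay of these messages was not measured. Where a message with a poison exon is degraded, its inclusion in the reads depends on both splicing and decay, which these counts cannot tell apart.

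**Figure D4:**
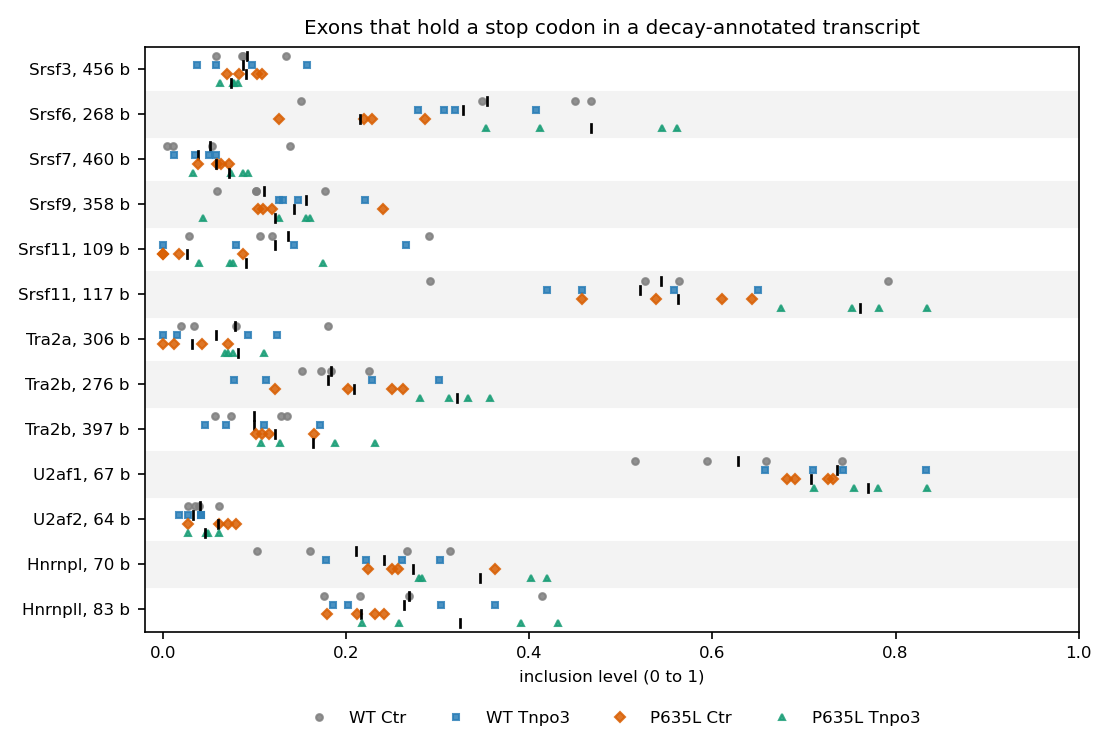
Inclusion level (0 to 1) of the members' poison exons in each library by group, with the group means. The 4 P635L Tnpo3 libraries lie above the 4 P635L Ctr libraries for Srsf6, for the Srsf11 exon of 117 bases and for the Tra2b exon of 276 bases, and the Srsf3 exon is at 0.0915 or lower on average in each group.

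Retained introns of the members were more often higher than lower with Tnpo3 in P635L hearts, as were those of all genes. Of 12 with variable inclusion, 8 were higher and 4 lower in P635L Tnpo3 than in P635L Ctr, and 1 had groups that did not overlap (8.33%, against 6.46% of all variable retained introns). Over all genes, 1676 such introns were higher and 858 lower, and of those without overlap 145 were higher and 19 lower.

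The Srsf6 intron of 1283 bases (GRCm39 chr2:162774063-162775345) contains the poison exon and shares its spliced junction reads, so that the events are not independent. Its retention was 0.726, 0.685, 0.684 and 0.555 in P635L Ctr and 0.89, 0.891, 0.843 and 0.824 in P635L Tnpo3, with no overlap (difference 0.199, exact permutation p = 0.0286, two-sided, and limma adjusted p = 0.264). In WT Ctr it was 0.764, 0.62, 0.866 and 0.889, and P635L Ctr was called lower in the authors' deposited table (difference -0.122, FDR = 0.0216). The Srsf7 intron of 874 bases (GRCm39 chr17:80511817-80512690), which also contains that gene's poison exon, was retained at 0.256, 0.133, 0.427 and 0.449 in WT Ctr. It was at 0.485, 0.508, 0.457 and 0.386 in P635L Ctr and at 0.471, 0.471, 0.498 and 0.506 in P635L Tnpo3. Both mutant groups were called higher in the authors' deposited tables (FDR = 0.0346 and 0.00583), and the latter did not overlap WT Ctr. Without the library at listed position 2 of WT Ctr the differences were 0.0817 in place of 0.143 and 0.109 in place of 0.170.

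The best covered intron of the SR genes was the Srsf5 intron of 1229 bases, with 771 junction reads a library. Its mean retention was 0.510 in WT Ctr, 0.466 in WT Tnpo3, 0.480 in P635L Ctr and 0.650 in P635L Tnpo3, and the difference between the mutant groups did not reach the smallest p (exact permutation p = 0.0571, two-sided). The Tra2a intron of 1238 bases stood at 0.155 in both mutant groups and at 0.109 in WT Ctr. The best covered exons of the other SR genes stayed close: Srsf2 (104 bases) was at 0.151 in WT Ctr and 0.192 in P635L Tnpo3, Srsf7 (36 bases) at 0.815 and 0.855, Srsf9 (90 bases) at 0.185 and 0.195, and Srsf1 (187 bases) at 0.930 and 0.907. None of these 4 was called.

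**Figure D5:**
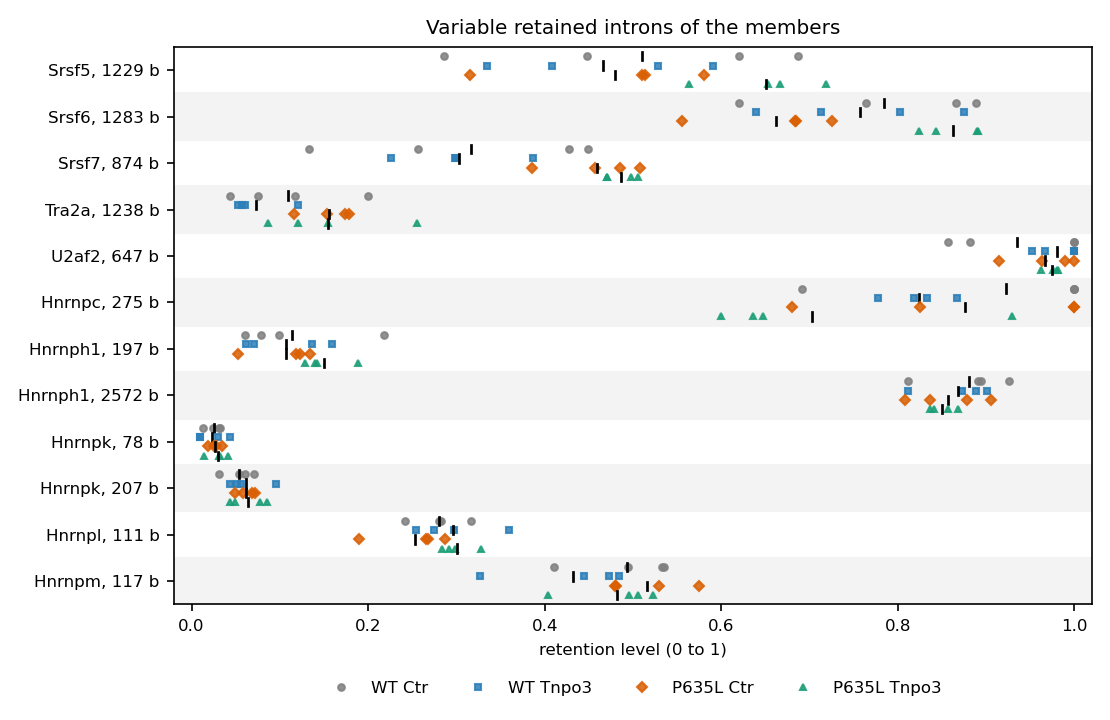
Inclusion level (0 to 1) of retained introns of the members in each library by group, with the group means. The Srsf6 intron is lowest in P635L Ctr and highest in P635L Tnpo3, and the Srsf7 intron is higher in both mutant groups than in WT Ctr on average.

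The other called events lay in hnRNP genes, and the inclusion level of each was lower in the mutant hearts. The Hnrnph1 exon of 139 bases measured 0.943, 0.964, 0.902 and 0.884 in WT Ctr and 0.836, 0.871, 0.77 and 0.773 in P635L Tnpo3, with no overlap (difference -0.111, FDR = 0.000102 in the authors' deposited table). The Hnrnpc exon of 26 bases measured 0.671, 0.585, 0.634 and 0.641 in WT Ctr and 0.384, 0.495, 0.527 and 0.564 in P635L Tnpo3, also with no overlap (difference -0.14, FDR = 0.0108 in the authors' deposited table). In P635L Ctr these exons lay in between, at means of 0.869 and 0.570. The Hnrnpc intron directly upstream of it, at a mean of 0.923 in WT Ctr and 0.703 in P635L Tnpo3 (FDR = 0.000352 in the authors' deposited table), rested on 11 to 27 junction reads a library. For a mutually exclusive pair of Hnrnpm exons, the inclusion level sets a single exon of the pair against the other. It fell from 0.742 in WT Ctr to 0.639 in P635L Tnpo3 (FDR = 0.00251 in the authors' deposited table), with overlap. The Hnrnpm exon of 15 bases, at 0.987 in WT Ctr and 0.858 in P635L Ctr (FDR = 0.0260 in the authors' deposited table), rested on 11 to 35 reads a library, and without the library at listed position 4 of P635L Ctr its difference was -0.0776 in place of -0.13. Limma's test on inclusion levels, with Benjamini-Hochberg adjustment over all events, called 0 member events in each comparison. It called few events of any gene with a difference of at least 0.1. Against WT Ctr these were 38 of 34645 in P635L Ctr, 8 of 34488 in P635L Tnpo3 and 0 of 31685 in WT Tnpo3. At an unadjusted p under 0.05 limma held 13 of 169 member events in P635L Ctr and 25 of 183 in P635L Tnpo3, each against WT Ctr. It held 4 of 166 in WT Tnpo3 against WT Ctr and 18 of 145 between the mutant groups. The share of all events under that threshold was not counted, so these numbers cannot be set against it.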

How the data were processed

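Poly(A) RNA of 16 left ventricles was sequenced from stranded libraries, per the labels' protocols. Reads were aligned to GRCm39 with STAR 2.7.9a and counted with featureCounts 2.0.6, per the submitters' processing notes. The gene table holds raw read counts as deposited, without normalization. The authors' deposited comparisons give DESeq2 log2 fold changes, p-values and adjusted p-values. The deposited splicing tables hold, per the file headers, rMATS junction read counts, inclusion levels from 0 to 1, p-values, an FDR and, as a score from -1 to 1, the inclusion difference. The annotation, the strand setting and the rMATS version are not given in the sources used here.

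Genes were tested with edgeR 4.0.16 in R 4.3.3 (TMM factors, filterByExpr, quasi-likelihood test, all 16 libraries in one fit, Benjamini-Hochberg over 18662 genes), and inclusion levels between the mutant groups with limma 3.58.1 on logit values (0.5 reads added, weighted by reads). Both scripts were tested on simulated data. CPM are counts scaled by the TMM-adjusted library total. A member event is variable with a mean inclusion of 0.02 to 0.98. Exact permutation tests enumerated the 70 assignments of 8 libraries. Members and lists were chosen with earlier results of these data known, so no p is adjusted over a list alone. Named genes are all members called in a contrast, with Tnpo3, Rbm20 and called genes of the lists reported; other members are given as further values. Named events are all called member events, the best covered event of each SR and Tra2 gene, and the poison exons. Alternatives were other scalings, DESeq2 1.42.0, other filters and thresholds, a replicate block and left-out libraries. The labels give each sample as a separate mouse. The replicate numbers were not taken to pair the mice. Not every gene of the lists is reported here.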

Additional observations from a re-analysis of the deposited data

Results flagged for a closer look

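Among 252 groups of 4 libraries, 12 held a library that stood apart from the other 3 by Dixon's criterion for 4 values, and chance gives about 1 in 20 groups. They were 6 of 136 gene levels and 6 of 116 event inclusions. P635L Tnpo3 replicate 3 was low for Hnrnpa3, at 91.1 CPM against 142.3 to 143.5 in the other libraries of its group, and for Hnrnph3, at 50.1 against 61.5 to 62.6. WT Tnpo3 replicate 1 was low for Hnrnph3, at 30.5 CPM against 58.9 to 61.2. WT Tnpo3 replicate 2 was high for Hnrnpab, at 148.5 CPM against 110.0 to 116.4. WT Ctr replicate 1 was low for Hnrnpm, at 119.5 CPM against 136.0 to 139.3. P635L Ctr replicate 4 was low for Hnrnpu, at 211.4 CPM against 239.0 to 242.7.

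Among inclusion levels, the library at listed position 2 of WT Ctr was low for the Hnrnpc intron of 275 bases, at 0.692 against 1.0 in the others. The library at listed position 3 of P635L Tnpo3 was high for the same intron, at 0.929 against 0.6 to 0.647. The Hnrnpm exon of 15 bases was at 0.949 in the library at listed position 3 of WT Ctr, against 1.0, and at 0.701 in the library at listed position 4 of P635L Ctr, against 0.898 to 0.927. The Srsf9 poison exon was at 0.24 in the library at listed position 3 of P635L Ctr, against 0.104 to 0.119. The Tra2a intron of 1238 bases was at 0.121 in the library at listed position 2 of WT Tnpo3, against 0.053 to 0.061.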

How the results depend on the processing

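No called member reversed its direction under any alternative. In P635L Ctr against WT Ctr, where 3 members were called, DESeq2 gave 5, the fit of only the groups compared 1 (Hnrnpdl), the fit without the 3 libraries rich in the non-coding locus 1 (Hnrnpul2), an adjusted p under 0.1 gave 5 and one under 0.01 gave 0. Leaving out single libraries gave 0 to 5: 1 without WT Ctr replicate 2, WT Ctr replicate 4 or P635L Ctr replicate 1, 0 without P635L Ctr replicate 2 and 5 without WT Ctr replicate 3. Between the mutant groups, where 1 was called, DESeq2 gave 3, no filter on low counts 0, only the groups compared 7, leaving out the 3 rich libraries 3, leaving out the 3 libraries with high Xist 3, an adjusted p under 0.1 gave 3 and one under 0.01 gave 0. Leaving out single libraries gave 0 to 3: 0 in the 9 cases named with Hnrnph2, 2 without WT Ctr replicate 4 or WT Tnpo3 replicate 1, and 3 without WT Tnpo3 replicate 4. In P635L Tnpo3 against WT Tnpo3, where 0 were called, DESeq2, no filter, leaving out the rich libraries and an adjusted p under 0.1 each gave 1 (Srsf11), and so did leaving out WT Ctr replicate 2 or WT Tnpo3 replicate 3 (range 0 to 1). The other 3 contrasts gave 0 under every alternative run. The SRSF and Tra2 median in P635L Ctr, 0.17, was 0.10 without the rich libraries, with 10 of 12 positive, and 0.29 without WT Ctr replicate 3 or P635L Ctr replicate 4. Between the mutant groups it was -0.03, and 0.02 and 0.01 without P635L Ctr replicates 1 and 2.

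With the replicate number as a block, 4 members were called in P635L Ctr against WT Ctr, 1 between the mutant groups (Hnrnpul2 in place of Hnrnph2) and 0 in the other contrasts. Over all groups, same-numbered libraries had a mean r of -0.0116 (24 pairs), against 0.00376 for 72 pairs of unlike numbers. Between the WT groups the same-numbered pairs had r of 0.0964, 0.108, 0.276 and 0.552, 1 of them under the 0.1 asked of every pair, and between the mutant groups -0.0575, 0.141, 0.129 and 0.053. The numbers were therefore not taken to pair the mice. No paired analysis was possible for the splicing events because the tables do not state which mouse each listed position is.

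Of the splicing calls, the 4 in P635L Ctr became 7 at a difference of at least 0.05, 0 at 0.2 and 0 at an FDR under 0.01. The 8 in P635L Tnpo3 became 13, 1 and 5. In WT Tnpo3, 1 event was called with at least 5 junction reads and 1 at a difference of 0.05, in place of 0. Limma on the inclusion levels, with weights, without them, with a pseudocount of 1, over events with at least 20 reads of each form (chosen after seeing the data) and with each library left out, gave 0 in place of the 4 and 8, and 0 between the mutant groups. Over all events, weighted limma called 38 in P635L Ctr and 8 in P635L Tnpo3 against WT Ctr, where the deposited tables gave 877 and 734. The loss of calls was therefore not particular to the members. The cause of these changes was not tested. With single libraries left out, the called differences kept their direction. Those of the Srsf11 exon of 109 bases, the Srsf7 intron in P635L Ctr and the Hnrnpm exon of 15 bases came down to -0.0584, 0.0817 and -0.0776, and those of the Srsf6 intron, the Hnrnph1 exon, the Hnrnpl exon and the Hnrnpm pair to -0.0864, -0.0966, 0.0989 and -0.0805, all smaller in size than 0.1; the FDR could not be recomputed. Events with few junction reads, such as the Hnrnpc intron and the short Hnrnpm exon, are the least precise.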

Other observations

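Apart from the Srsf6, Srsf11 and Tra2b events, 5 events of the members had mutant groups that did not overlap. The Hnrnpk exon of 44 bases was included at 0.954, 0.953, 0.985 and 0.972 in P635L Ctr and at 0.939, 0.909, 0.931 and 0.943 in P635L Tnpo3. The other U2af1 exon of 67 bases was included at 0.087, 0.104, 0.123 and 0.091 in P635L Ctr and at 0.071, 0.07, 0.056 and 0.079 in P635L Tnpo3, and a mutually exclusive event of the same gene had means of 0.150 and 0.107. The Hnrnpm exon of 36 bases was higher, at 0.949 to 0.962 in P635L Ctr and 0.97 to 1.0 in P635L Tnpo3. The Hnrnpr exon of 122 bases was at 1.0 in all 4 P635L Ctr libraries and at 0.991 to 0.995 in P635L Tnpo3. None passed limma's test after adjustment over all events (adjusted p 0.349 to 0.516), and the differences were at most 0.0432 in size.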
